A study of Mus musculus with 6 samples.

Results

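Transcript levels were compared between retinas that had received the lower of 2 doses of titanium dioxide nanoparticles and retinas that had received saline. The 3 arrays of that dose, out of 6 in the series, were taken by their titles, and every gene measured on them is described. The animals were male C57BL/6 mice aged 8 weeks, and the right eye was injected into the vitreous, the gel behind the lens. The groups were phosphate-buffered saline (PBS), the lower nanoparticle dose, which the labels call PTC, and 10 times that dose, called 10PTC. The labels do not spell out PTC. Retinas were collected after 7 days from 12 mice per group, and 4 retinas were pooled per tube. On each 2-colour Agilent array with 60-base probes the treated pool carried Cy5 and PBS control RNA carried Cy3, with no dye swap. A dye effect therefore enters every ratio and cannot be told apart from the treatment. The labels do not say whether the control RNA was 1 pool. PTC replicates 1 and 2 lay on slide 1. PTC replicate 3 lay on slide 2 together with the 3 10PTC arrays. Each value is log2 of Cy5 over Cy3, so that 1 stands for 2-fold higher after PTC, and was tested against 0 in limma with Benjamini-Hochberg adjustment over all genes. The p-values measure the spread of the ratio among 3 pools. If the control RNA was 1 pool, they leave out the spread of the control itself.

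Titanium dioxide is a white pigment whose nanoparticles are taken up by phagocytic cells. The retina answers many kinds of injury through 2 cell types that are not neurons, the microglia, which are its resident macrophages, and the Muller glia, which span its depth, buffer its ions and transmitters, and build up intermediate filaments when they react. All 12 rod photoreceptor markers and all 12 Muller glia markers listed were bright enough in Cy3 and in Cy5 to be well above background on each of the 3 PTC arrays. The labelled tissue was therefore present in both channels. Fewer cells of a type and less RNA per cell cannot be told apart in pooled tissue.

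Across the transcriptome small changes far outnumbered large ones. At an adjusted p of 0.05 limma called 4641 of the 22599 genes tested (20.5%). Of these, 2308 (10.2%) were higher and 2333 (10.3%) were lower after PTC. All 4641 had 1 sign on the 3 arrays, which passing the test nearly requires, and 62.7% of all genes tested had it too. The median size of a called change was 0.35 log2 units, against 0.13 over all genes. Only 173 called genes changed by 2-fold or more, 90 higher and 83 lower. The band from 1.5- to 2-fold held 288 higher and 229 lower, that from 0.32 log2 units to 1.5-fold 996 and 1055, and that below 0.32 log2 units 934 and 966. The share of genes called was 10.1% in the band of smallest changes and between 72.3% and 79.4% in the other bands. Among called genes the smallest changes were also the most even. Their medians in the direction of the call were 0.27, 0.25 and 0.25 on replicates 1, 2 and 3. At 2-fold or more the medians were 1.71, 1.18 and 1.43. A small change passes only where the pools nearly agree, so the evenness of the smallest changes follows from the call.

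**Figure D1:**
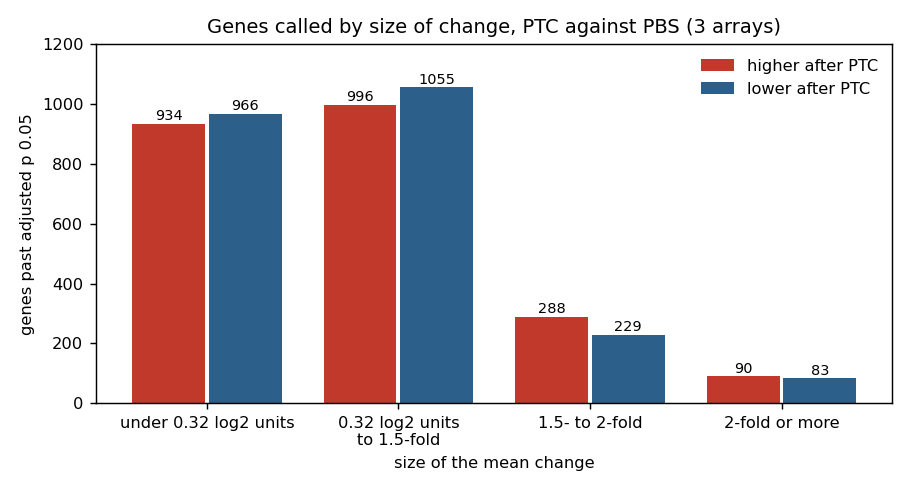
Number of genes past an adjusted p of 0.05 (vertical axis), by size of the mean change of the 3 PTC arrays (horizontal axis), with red bars for genes higher and blue bars for genes lower after PTC. Most called genes sit in the bands below 1.5-fold, with 996 higher and 1055 lower between 0.32 log2 units and 1.5-fold against 90 and 83 at 2-fold or more.

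The number of genes that passed depended on the signal used, while the direction did not. With the scanner software's processed signals in place of the mean signals, 32 genes were higher (0.142%) and 41 lower (0.181%), but 4639 of the 4641 calls kept their sign. Those adjusted p-values lay just above the threshold, so that 2004 genes lay below 0.06 and 6066 below 0.1, against 5468 and 7934 with the mean signals. No gene passed without PTC replicate 2 (7836 at an unadjusted p below 0.05 in limma, smallest adjusted p 0.0763), and 143 higher and 96 lower passed without replicate 3. Median centring in place of loess turned the split of 2308 higher and 2333 lower into 5978 higher and 1410 lower. It moved the median of all genes to 0.09.

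Among genes that changed by 2-fold or more, those of smallest p that rose included a neuropeptide precursor and 2 blood and immune proteins. Calca, the precursor of calcitonin and of the peptide CGRP, lay at 1.19, 1.06 and 1.22 in PTC replicates 1, 2 and 3 (1.16 ± 0.08, SD, n = 3; limma adjusted p = 0.00844). The 3 pools were nearly equal, although a second Calca probe lay at 0.02. C4b, a complement component, lay at 1.89, 1.46 and 1.32 (limma adjusted p = 0.0173). Pros1, protein S of blood clotting and a ligand of the receptors by which phagocytes take up dying cells, lay at 1.49, 0.92 and 1.08 (limma adjusted p = 0.0173). Both were highest in replicate 1. On the lower side all 4 genes of smallest p belong to striated muscle. They were Mybpc1 (-2.08, -2.33 and -2.15, with another probe at -0.60), Ckm, the muscle creatine kinase (-2.17, -1.97 and -2.26), Acta1, the skeletal actin (-2.25, -2.26 and -2.57), and Hrc, a calcium-binding protein of muscle (-1.94, -1.68 and -1.81). Each had a limma adjusted p of 0.00639, and no replicate stood apart.

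In the band from 1.5- to 2-fold the higher genes of smallest p were of other kinds, while the lower ones again included muscle genes. Rab5c, a GTPase of early endosomes, lay at 0.95, 1.04 and 0.94 in replicates 1, 2 and 3 (0.97 ± 0.06, SD, n = 3; limma adjusted p = 0.0099). Tsc2, an inhibitor of the growth kinase complex mTORC1, lay at 0.96, 1.03 and 0.86, and Cd300a, an inhibitory receptor of myeloid cells, at 0.82, 0.71 and 0.71. Sag, the arrestin that ends the light response of rods, lay at 0.75, 1.00 and 0.90. In these 4 genes every pool was clearly above 0, and replicate 1 was the highest for Cd300a alone. The 4 lower genes of smallest p were Dusp13, a phosphatase (-0.92 ± 0.06, with another probe at -0.38), Atp2a1, the calcium pump of fast muscle (-0.88 ± 0.05), Plac9a (-0.94 ± 0.08) and Myh7, a slow myosin (-0.79 ± 0.04, SD, n = 3), with limma adjusted p between 0.0123 and 0.0139. With processed signals these 4 lay at -1.81, -1.48, -0.95 and -1.08, and Tsc2 at 1.31, so the band of a gene depended on the signal.

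Between 0.32 log2 units and 1.5-fold the genes of smallest p hardly differed among pools, which ranking by p within a band favours. Bmp6, a signalling protein of the bone morphogenetic family, lay at 0.59, 0.58 and 0.58 in replicates 1, 2 and 3 (0.58 ± 0.01, SD, n = 3; limma adjusted p = 0.0173), and at 1.06 with processed signals. Ddx1, an RNA helicase, lay at 0.55, 0.52 and 0.54. Nucb2, the precursor of nesfatin (0.54 ± 0.02), and Ccdc90b (0.58 ± 0.02, with another probe at 0.12) were the other two. Of the 4 lower genes 3 act on chromatin. They were H2ax, the histone marked at broken DNA (-0.54, -0.59 and -0.53), Kmt5c, a histone methyltransferase (-0.56, -0.64 and -0.54), and Kdm2a, a histone demethylase (-0.63, -0.54 and -0.54), beside Gga1, an adaptor of the Golgi (-0.58, -0.59 and -0.52). All 8 had a limma adjusted p of 0.0173.

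The arrays were unequal in how far genes moved. Replicate 1 had an SD of 0.40 log2 units over all genes, against 0.28 in replicate 2 and 0.30 in replicate 3. In replicate 1, 562 genes were 2-fold or more higher and 114 lower, against 102 and 99 in replicate 2 and 110 and 146 in replicate 3. The largest change of a called gene fell on replicate 1 for 2566 genes, on replicate 2 for 1291 and on replicate 3 for 784. The ratios of the pair that shares a slide were no closer than those of pairs across slides. The median size of the difference between replicates 1 and 2, which share slide 1, was 0.147 log2 units, against 0.106 between replicates 3 and 1 and 0.10 between replicates 3 and 2. Single channels were closer within slide 1 than across slides. Cy3 had a spread of 0.0652 between replicates 1 and 2 and of 0.195 and 0.196 across slides. Cy5 differed by 0.21 within slide 1 and by 0.28 and 0.263 across. In a limma fit with a slide term no gene differed between slides (0% called; 665 genes, 2.94%, at an unadjusted p below 0.05, smallest adjusted p 0.281). A single PTC array lies on slide 2, which limits that test.

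A run of alternating guanine and thymine in the probe went with a higher ratio. The probes below are shown because 2 probes of the same gene were called in opposite directions, and 1 of each pair holds such a run. Each line gives 30 of the 60 probe bases, 5′ to 3′, in lower case, with the run in capitals where there is one. The sequences and the mm9 coordinates are those of the array design, and whether a probe lies in coding sequence or in a UTR is not known here.
Ubtf, chr11:102166995-102167054, minus strand: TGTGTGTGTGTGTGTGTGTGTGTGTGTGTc
Ubtf, chr11:102167265-102167324, minus strand: cgtctctgttgtcatttctgggactgggag
Golga7b, chr19:42343901-42343960, plus strand: tatgcatgtgttTGTGTGTGTGTGTGggga
Golga7b, chr19:42344777-42344836, plus strand: ccaataaaaggacttgccagcttgaggctc
Dmtn, chr14:71001871-71001930, minus strand: aatatgtgtgGTGTGTGTGTGTGTtggggg
Dmtn, chr14:71003548-71003607, minus strand: ttcgtttttacccagaccctggcactccct
Itsn1, chr16:91913786-91913845, plus strand: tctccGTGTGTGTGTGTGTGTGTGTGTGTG
Itsn1, chr16:91851073-91851132, plus strand: gcggctcagccttctctgaccgtacctagt
Ubtf, a transcription factor of ribosomal RNA genes, lay at 1.10, 1.07 and 0.69 in replicates 1, 2 and 3 on the probe with the run, and at -0.76, -0.59 and -0.56 on the probe without one (limma adjusted p = 0.0164 for both). Golga7b, a partner of protein-palmitoylating enzymes, lay at 1.10, 0.79 and 0.67 with the run and at -1.02, -0.68 and -0.70 without. Dmtn, an actin-bundling protein, had means of 0.93 with the run and -0.63 without, and Itsn1, an endocytic scaffold, 0.93 and -0.29. On all 3 arrays the probe with the run was above 0 and its partner below, which the choice of these pairs nearly requires. Most pairs of probes called in opposite directions held no run as long as those shown. Fam163b had means of 0.41 and -0.64 on probes with longest runs of 4 and 3 bases. Zfp488 had means of 0.32 and -0.35 with longest runs of 5 and 2. Opposite calls alone therefore do not mark a run.

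Over all genes tested the ratio climbed with the length of the run. The 22110 genes whose probe has a longest run of 6 or fewer bases had a median of 0.00, and 9.46% of them were called higher and 10.5% lower. At 9 or 10 bases the median was 0.26, and 50.9% of 53 genes were called higher. At 11 to 14 bases it was 0.61, with 81.8% of 44 genes called higher, and at 15 to 20 bases it was 0.90, with all 28 genes called higher. The 48 genes with a run over 20 bases were all called higher, with a median of 0.95. No gene was called lower from 9 bases on. These 48 genes lay within a narrow band from 0.55 to 1.05, at medians of 1.11, 1.03 and 0.68 on replicates 1, 2 and 3, and at 0.82, 0.82 and 0.97 on the 10PTC arrays. Their probes were bright, with a median log2 Cy3 signal of 14.03 against 9.08 for probes with 6 or fewer. The median was 0.93 with processed signals and 0.95 in the authors' deposited table.

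**Figure D2:**
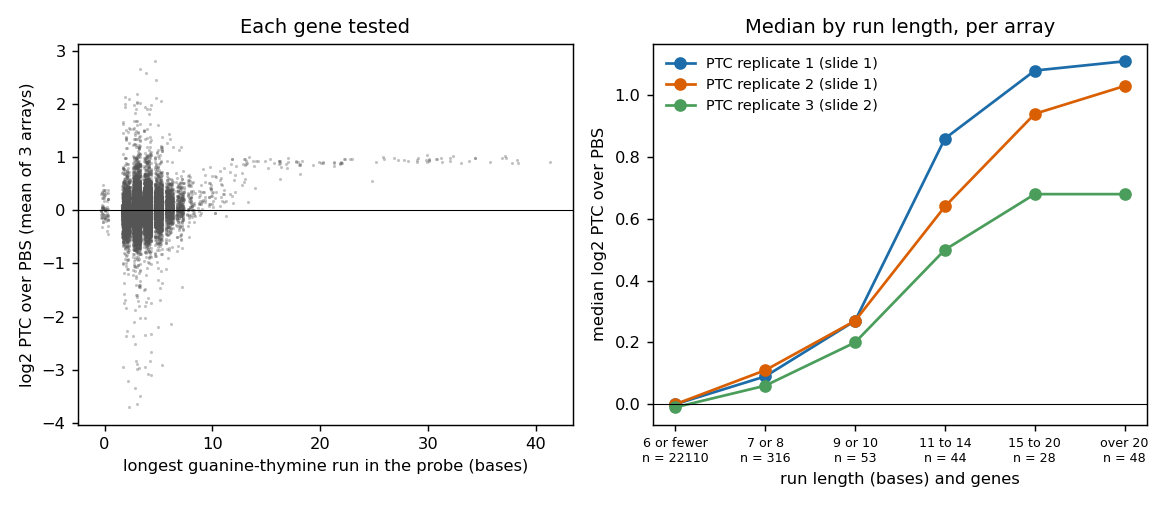
Left, mean log2 ratio of PTC over PBS (vertical axis) of each gene tested against the longest run of alternating guanine and thymine in its probe in bases (horizontal axis, points spread sideways for legibility); right, the median ratio by run length on each PTC array. Beyond about 15 bases nearly all points lie in a band just under 1, and medians of 1.11, 1.03 and 0.68 are reached on replicates 1, 2 and 3 over 20 bases.

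Such probes made up a small share of the genes tested and a large share of the moderate increases. A run of 9 or more bases was held by 173 of the genes tested (0.766%), by 139 of the 2308 called higher (6.02%) and by none of the 2333 called lower. Among the 288 genes called higher by 1.5- to 2-fold, 100 (34.7%) had one, and among the 90 called higher by 2-fold or more, 4 (4.44%), Spag7 being one of them. Of the genes with a run, 56 had 74 further probes without one. The median was 0.88 on the probes with the run and 0.01 on the others, of which 11 were called higher, 8 lower, and none was higher by 1.5-fold or more. With all such probes left out, 2137 genes were higher and 2302 lower. Genes named in later paragraphs whose probe holds a run are marked as such. What sets the ratio of these probes was not tested.

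Base composition of the probe went with the calls as well. Among the 5730 genes whose probe has a GC content of 35% or less, 16.2% were called higher and 6.4% lower, with a median of 0.06. Among the 3310 genes above 50%, 2.51% were higher and 18.2% lower, with a median of -0.08. The medians of the poorest and richest probes were 0.05 and -0.08 on replicate 1, 0.07 and -0.10 on replicate 2, and 0.05 and -0.08 on replicate 3. With each array's ratios corrected for GC content, 1749 genes were higher and 2197 lower.

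**Figure D3:**
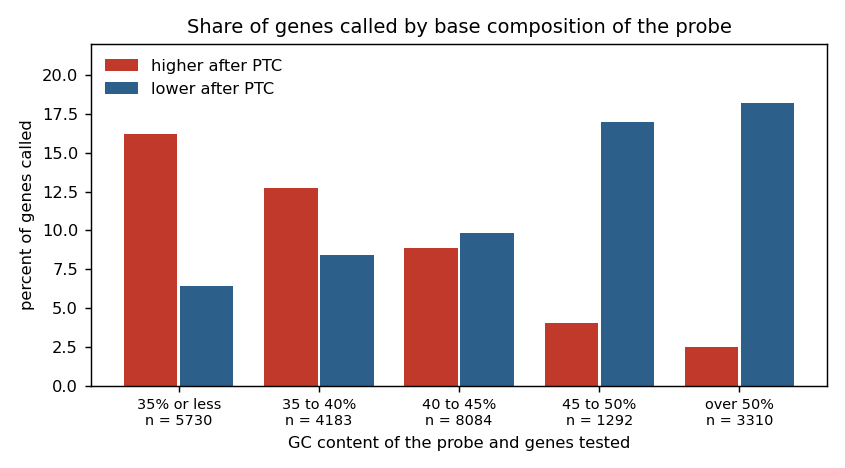
Percent of genes called (vertical axis) by GC content of the probe (horizontal axis, with the number of genes tested), in red for genes higher and blue for genes lower after PTC. The share called higher falls from 16.2% to 2.51% and the share called lower rises from 6.4% to 18.2%.

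Where a gene had several probes, the other probes shared the sign more often for called genes than for genes not called. Of the other probes of genes called at 2-fold or more, 88.1% had the same sign and 52.4% were called in the same direction. For genes called at 1.5- to 2-fold the shares were 80% and 40.6%, and 4.85% of the other probes were called the opposite way. For genes called between 0.32 log2 units and 1.5-fold they were 82.9% and 34.9%. For genes called below 0.32 log2 units they were 74.2% and 22.3%, against 63.9% and 10.5% for genes not called. Probes of a gene can lie in different transcripts, and which ones was not examined.

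Several receptors of immune signals rose, most of them furthest in replicate 1. Of 28 receptors of interleukins and of the tumour necrosis factor family, 6 were called higher (21.4%) and none lower, against 10.2% and 10.3% of all genes tested, to which the shares of the later lists also compare. Counts after median centring compare instead to 5978 higher and 1410 lower of the 22599 genes tested, and medians to 0.09. The list median was 0.23 (0.44, 0.13 and 0.20 on replicates 1, 2 and 3) against 0.00 over all genes. Tnfrsf1a, the main receptor of tumour necrosis factor, lay at 1.60, 0.73 and 0.95 (1.09 ± 0.46, SD, n = 3; limma adjusted p = 0.0258), and its other probe at 0.72. Csf1r, which microglia need to survive, lay at 0.94, 0.39 and 0.61, with its lowest probe at 0.15, and Il1r1, the receptor of interleukin-1, at 0.52, 0.24 and 0.35. Csf2ra, a subunit of the receptor for the growth factor GM-CSF, was the most even at 0.59, 0.50 and 0.46. Il15ra also passed at 0.98, but its probe holds a run of 17 bases and its other probe lay at -0.08. Without such probes 5 of the list were higher.

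Few sensors of microbial and damaged-cell patterns passed. Of 26 Toll-like receptors, adaptors and pattern receptors, 3 were called higher (11.5%, near the share over all genes) and 1 lower, with a median of 0.22 (0.47, 0.03 and 0.16 on replicates 1, 2 and 3). Clec7a, the beta-glucan receptor dectin-1 of myeloid cells, lay at 2.95, 1.18 and 2.09 (2.07 ± 0.89, SD, n = 3; limma adjusted p = 0.0258). Tlr7, a sensor of single-stranded RNA, lay at 0.50, 0.17 and 0.36. Tlr3, a sensor of double-stranded RNA, was at least 1.27-fold higher, since its Cy3 signal was not well above background on any array. Traf6, an adaptor of these receptors, fell to -0.29 ± 0.06 on its brighter probe, with the other at 0.17. The lowest and highest values are those of Traf6 and Clec7a.

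Signalling of the interleukin-6 family, which acts through the shared receptor gp130 and the factor STAT3, had 5 of 23 genes higher (21.7%) and 1 lower. The median was 0.13, with 0.32, 0.05 and 0.08 on replicates 1, 2 and 3. Osmr, the oncostatin M receptor, lay at 1.90, 0.81 and 1.02 (1.24 ± 0.58, SD, n = 3; limma adjusted p = 0.0289), and Il6st, which encodes gp130, at 0.74, 0.29 and 0.48. Cish, a feedback inhibitor, fell to -0.29 ± 0.11. Among 18 NF-kappa-B subunits and inhibitors only Bcl3 passed, a coactivator of the pathway, at a mean of 2.59. The list as a whole had a median of 0.05. Of 19 genes of leukocyte adhesion and migration 3 were higher (15.8%), among them the endothelial ligand Vcam1 (1.41, 0.64 and 0.87, with another probe at 0.39), and 2 lower (10.5%), among them Cd34 (-0.57, -1.03 and -1.31, limma adjusted p = 0.0242, with another probe at -0.16). Markers of neutrophils and lymphocytes mostly did not pass, with 1 of 13 neutrophil genes higher (Lcn2, at 1.69, which reactive glia also make) and 1 of 10 measured lymphocyte genes lower (Cd3e).

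Among glial genes, the members of a cytoskeletal list that passed were all higher, while those of a support list went both ways. Of 30 genes of the reactive cytoskeleton, S100 proteins, annexins and galectins, 7 were higher (23.3%), none lower and 23 did not pass, with a median of 0.39. With processed signals none of the list passed. The same held for every list but skeletal muscle (6 lower), fat tissue (2 lower) and pericytes with smooth muscle (1 lower). Its median differed among pools, at 0.92, 0.10 and 0.28 on replicates 1, 2 and 3. Gfap, the intermediate filament of reactive glia, lay at 2.33, 1.23 and 1.28 (1.61 ± 0.62, SD, n = 3; limma adjusted p = 0.0232), with its 3 probes between 0.10 and 1.80. Cd9, a membrane organizer, lay at 1.13, 0.57 and 0.57, and Lgals3bp, a galectin ligand, at 1.34, 0.50 and 0.74, with another probe at 0.42. Without replicate 1 the count was 9 higher and 2 lower, at a median of 0.16.

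Of 22 Muller glia genes of homeostasis and transport 4 were higher (18.2%) and 3 lower (13.6%), with a median of -0.03, or 0.14 after median centring. Crym, which binds thyroid hormone, lay at 2.64, 1.20 and 1.61, far above the rest of its list. Slc16a3, a lactate exporter, lay at -0.62, -0.72 and -0.69 (-0.68 ± 0.05, SD, n = 3; limma adjusted p = 0.0173), and Glul, glutamine synthetase, at -0.81, -0.40 and -0.71. Rdh10, a retinol dehydrogenase, lay at 0.62, 0.38 and 0.41. In the list of 12 defining Muller markers 5 were higher, among them Clu (0.80) and Apoe (0.67), 2 secreted carriers of lipid, and 1 lower, Glul. The potassium channel Kcnj10 and the water channel Aqp4 did not pass, at 0.04 and 0.11.

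Iron and metal handling changed in members with opposed roles. Of 21 metallothioneins and genes of zinc and iron handling, 8 were higher (38.1%) and 3 lower (14.3%), with a median of 0.33 (0.54, 0.08 and 0.25 on replicates 1, 2 and 3). The ferroxidase Cp lay at 2.23, 1.03 and 1.42 (1.56 ± 0.61, SD, n = 3; limma adjusted p = 0.0238), with another probe at 0.73. Tfrc, the receptor that brings iron into cells, fell to -0.76, -0.42 and -0.55, while 1 of its 3 probes lay at -0.13. The metal-binding Mt1 (0.79 ± 0.36) and Mt2 (0.98 ± 0.53) rose. Mt3, the neuronal metallothionein, fell by 0.30 on the log2 scale with an SD of 0.02.

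**Figure D4:**
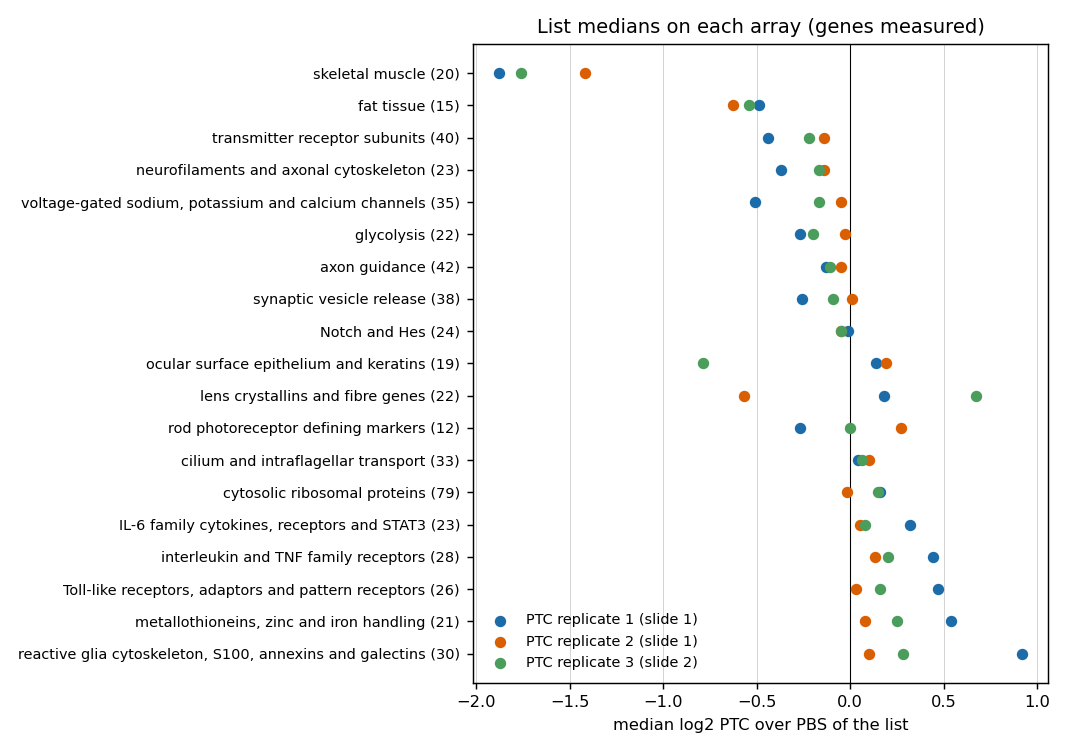
Median log2 ratio of PTC over PBS (horizontal axis) of 19 gene lists (vertical axis, with the number of genes measured) on each of the 3 PTC arrays, blue and orange for slide 1 and green for slide 2. The muscle list lies lowest on all arrays, the reactive glia list spans 0.10 to 0.92, and the ocular surface and lens lists have medians on both sides of 0.

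Subunits of transmitter receptors were lower without exception among those that passed. Of 40 subunits 13 were lower (32.5%) and none higher, with a median of -0.25 (-0.44, -0.14 and -0.22 on replicates 1, 2 and 3), and -0.17 with 7 lower after median centring. Gabbr2, a subunit of the metabotropic GABA receptor, lay at -0.90, -0.64 and -0.71 (-0.75 ± 0.13, SD, n = 3; limma adjusted p = 0.0173), while 1 of its 3 probes lay at -0.03. Grik5, a kainate receptor subunit, lay at -0.61, -0.34 and -0.41. The lowest member, the nicotinic subunit Chrna6, lay at -1.31, -0.43 and -0.60, furthest in replicate 1. Glra2, a glycine receptor subunit, was the highest at 0.12 and did not pass.

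Voltage-gated channels were mostly lower as well. Of 35 sodium, potassium and calcium channel genes 9 were lower (25.7%) and 1 higher, with a median of -0.21 (-0.51, -0.05 and -0.17 on replicates 1, 2 and 3). After median centring 6 were lower and 3 higher, at -0.06. Kcna6, a potassium channel, lay at -0.69, -0.52 and -0.45 (-0.56 ± 0.12, SD, n = 3; limma adjusted p = 0.0184), while 1 of its 3 probes lay at 0.07, and Kcnh2 at -0.58, -0.36 and -0.37. The only higher member, Scn8a (0.87), has a probe with a run of 16 bases, and another of its probes lay at -0.14. With such probes left out 9 channels were lower and none higher.

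Lists of the synapse and the axon changed direction with the scaling, as the calls over all genes tested also shifted upward with median centring. Of 38 synaptic vesicle genes 8 were lower (21.1%) and 3 higher (7.89%) with loess, at a median of -0.08, and 4 lower and 12 higher with median centring, at 0.06. Syp, a vesicle membrane protein, lay at -0.42, -0.30 and -0.38 (-0.37 ± 0.06, SD, n = 3; limma adjusted p = 0.0217), and Stx1a, a fusion protein, at -0.43, -0.27 and -0.37. The 3 higher genes included Stx3 and Cplx4, the fusion protein and complexin of photoreceptor ribbon synapses, at 0.36 (with its lowest probe at -0.02) and 0.26, beside Sypl, whose probe has a run of 10 bases. Of 23 neurofilament and axonal cytoskeleton genes 6 were lower (26.1%) and none higher with loess, at a median of -0.22, and 2 lower and 6 higher with median centring, at 0.02. Tubb3, the neuronal tubulin, lay at -0.64, -0.47 and -0.45.

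Guidance genes that passed were more often lower with loess and more often higher with median centring, which raised the higher count over all genes too. Of 42 axon guidance genes 11 were lower (26.2%) and 5 higher (11.9%) with loess, at a median of -0.12, and 4 lower and 11 higher with median centring, at 0.01. Lower ligands of Eph receptors included Efnb1 at -0.41, -0.45 and -0.52 (-0.46 ± 0.06, SD, n = 3; limma adjusted p = 0.0177), Efna5 at -0.32 and Efna2 at -0.30. The repellent Slit1 lay at -0.65, -0.37 and -0.42. Of the higher genes, Epha5, Ephb3 and Sema6d lay at 0.91, 0.90 and 0.89 on probes with runs of 20, 33 and 20 bases, and Epha5 and Sema6d each had another probe at -0.01 and -0.11. Without such probes Sema5a (0.50, 0.36 and 0.39) and Plxna2 (0.37) were the 2 that remained higher.

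In developmental pathways most changes that passed were small. Of 24 Notch pathway genes 7 were lower (29.2%) and 1 higher, at a median of -0.02. With median centring 4 were lower and 5 higher, at 0.07. The lower genes included the ligand Dll3 (-0.47, -0.58 and -0.41; limma adjusted p = 0.0181) and the target Hes5, which glia also use (-1.27, -0.54 and -0.84). The target Hey2 was the 1 higher, at 0.29. Of 32 genes of transforming growth factor beta and bone morphogenetic proteins 6 were higher (18.8%) and 2 lower, at a median of 0.13. Beside Bmp6, described above, its receptor Bmpr1a lay at 0.52, 0.51 and 0.49 and the antagonist Grem1 at 0.41, 0.27 and 0.36, while the ligand Tgfb3 lay at -0.30, -0.30 and -0.29. Of 31 Wnt genes 4 were higher (12.9%, near the share over all genes) and none lower, at a median of -0.03, Ctnnb1, the beta-catenin gene, being the one of smallest p (0.47, 0.36 and 0.33).

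Cilium genes that passed were nearly all higher. Photoreceptor outer segments are built on a cilium, and of 33 genes of the cilium and its transport trains 10 (30.3%) were higher and 1 lower, against 10.2% and 10.3% of all genes tested, though the list median was only 0.06. Ift74, a transport subunit, lay at 0.53, 0.41 and 0.49 (0.48 ± 0.06, SD, n = 3; limma adjusted p = 0.0173), Rpgr, which guards entry to the photoreceptor cilium, at 0.53, 0.74 and 0.51, and Cep290 at 0.33, 0.29 and 0.28. Ift57 was the highest at 1.36, 0.56 and 0.80, and Ift122 the lowest at -0.21. Corrected for GC content 9 were higher and none lower. Of 12 rod markers only Sag and Cnga1, a subunit of the light-regulated channel (0.39, 0.73 and 0.57), passed, both higher. The rod median was -0.27, 0.27 and 0.00 on replicates 1, 2 and 3.

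Genes of protein synthesis and breakdown moved in part. Of 79 cytosolic ribosomal proteins 13 were higher (16.5%) and none lower, with a median of 0.10 (0.16, -0.02 and 0.15 on replicates 1, 2 and 3). Median centring raised the count to 47 and the median to 0.37, and without replicate 1 the count was 8. Rpl5 lay at 0.67, 0.51 and 0.66 (0.61 ± 0.09, SD, n = 3; limma adjusted p = 0.0173) and Rpl4 at 0.50, 0.49 and 0.52. Ribosomal proteins have many processed copies in the genome, and their probes may also bind transcripts of such copies. Of 39 translation factors 9 were higher (23.1%), led by Eif3a (0.58 ± 0.09) and Eif4g2 (0.52 ± 0.03), and 3 lower, the initiation scaffold Eif4g1 (-0.45 ± 0.08) and the elongation factors Eef2 (-0.35 ± 0.04) and Eef1a2 (-0.50 ± 0.29). Of 33 proteasome subunits 8 were higher (24.2%) and 3 lower (9.09%). Psma6, of the core, lay at 0.43, 0.43 and 0.48, while the cap subunit Psmd3 lay at -0.43, -0.56 and -0.40. Psme3, the highest at 0.97, has a probe with a run of 13 bases.

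Lists of energy metabolism depended on the scaling, as did the counts over all genes tested. Of 22 glycolytic genes 6 were lower (27.3%) and none higher, at a median of -0.18 with loess, but 7 were higher and 1 lower at a median of 0.10 with median centring. Pfkl, a phosphofructokinase, lay at -0.56, -0.47 and -0.53 (-0.52 ± 0.04, SD, n = 3; limma adjusted p = 0.0173), and Tpi1 at -0.52, -0.40 and -0.47, with another probe at -0.06. Of 76 subunits of the respiratory chain and ATP synthase 8 were lower (10.5%, near the share over all genes) and 1 higher with loess, at a median of -0.05, and 21 higher and none lower with median centring, at 0.16. Cox4i1, of cytochrome oxidase, lay at -0.31, -0.31 and -0.30, and Ndufa10, the higher member, at 0.29, 0.55 and 0.50. Of 22 genes of the tricarboxylic acid cycle 2 were higher and 2 lower (9.09% each, near the shares over all genes), at a median of 0.11. With median centring 14 were higher and 1 lower, at 0.27. In lipid metabolism, 7 of 35 genes were lower (20%), led by the desaturase Scd1 (-0.62, -0.66 and -0.66). The 3 higher (8.57%, near the share over all genes) were the carnitine transferase Cpt1a (0.52, 0.56 and 0.43), the cholesterol exporter Abca1 (1.68, 0.67 and 1.17) and Apoe.

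Genes of p53 and cell death went both ways. Of 29 genes 6 were higher (20.7%) and 4 lower (13.8%), at a median of 0.03, and without replicate 1 the counts were 3 and 1. Casp8, an initiator caspase, lay at 0.94, 0.51 and 0.73 (0.73 ± 0.22, SD, n = 3; limma adjusted p = 0.0197). Pmaip1, which encodes the death factor Noxa, was at least 2.18-fold higher, its Cy3 signal not being well above background on any array. Bax, a pore-forming death factor, lay at -0.40, -0.67 and -0.48. Of 39 enzymes that add or remove histone methyl and acetyl groups 5 were higher (12.8%) and 7 lower (17.9%) with loess, and 12 higher and 3 lower with median centring. With probes that hold a run left out 3 were higher and 7 lower. Kdm6b, a demethylase, lay at -0.63, -0.52 and -0.48 on its brighter probe and at 0.19 on the other, and Ezh2, a methyltransferase, rose by 0.39 ± 0.06. Ehmt1 and Hdac7, at 0.80 and 0.47, have probes with runs of 11 and 9 bases.

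The lowest transcripts of the comparison belong to tissue outside the retina. Of 20 skeletal muscle genes 19 were lower (95%) and none higher, with a median of -1.73 (-1.88, -1.42 and -1.76 on replicates 1, 2 and 3). Within slide 1 the count was 14 lower and within slide 2 it was 18. Eno3, the muscle enolase, lay at -1.22, -1.14 and -1.23 (-1.20 ± 0.05, SD, n = 3; limma adjusted p = 0.00639). The troponin Tnni2 lay at -2.94, -2.72 and -4.00 and the myosin light chain Myl1 at -2.85, -2.85 and -5.41, both lowest on slide 2, with another Myl1 probe at -2.02. Both were picked for a small slide p, which favours such a difference, and no gene passed for slide. The Cy3 level of Tnni2, as log2 signal above the array's median, was between 5.04 and 5.18 on all 6 arrays. In Cy5 it was 2.13, 2.31 and 1.10 on the PTC arrays. The Cy3 level of Myl1 was 4.71 and 4.70 on slide 1 and between 4.27 and 4.45 on slide 2. Over the 20 genes the median Cy3 level was between 2.09 and 2.20 on the 6 arrays, and the median Cy5 level was -0.24, -0.11 and -1.08 on PTC replicates 1, 2 and 3.

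Fat genes that passed were lower too. Of 15 fat genes 9 were lower (60%) and none higher, at a median of -0.42. Adipoq, the fat hormone adiponectin, lay at -1.70, -2.0 and -1.93 (-1.88 ± 0.16, SD, n = 3; limma adjusted p = 0.00639), Cidec, of lipid droplets, at -1.42, -1.40 and -1.51, with another probe at -0.18, and Cidea at -1.59, -1.33 and -1.45. Cy5 was well above background on only 1 PTC array for Adipoq and on 2 for Cidec. Processed signals gave -4.09 and -3.28 for them, so the size of these falls is uncertain. Connective tissue genes went both ways. Col3a1, a fibrous collagen, was the lowest of 33 collagens at -1.05, -1.78 and -2.20, and Col10a1 the highest at 1.65, 0.62 and 2.17. Cy3 of Col10a1 was well above background on only 1 PTC array, and processed signals gave it a mean of 3.61. In all 2 collagens were higher (6.06%) and 4 lower (12.1%, near the share over all genes), at a median of 0.09. Of 46 matrix glycoproteins and proteoglycans 5 were higher (10.9%) and 6 lower (13%), both near the shares over all genes, at a median of 0.02. Mfap5, a microfibril protein, was the lowest (-1.08, -1.0 and -1.54). Of 13 red blood cell and heme genes 5 were lower (38.5%), with Alas2 at -0.76, -1.75 and -1.72, and 1 higher. Vessel and pigment cell lists moved little or upward. Of 18 endothelial genes 3 were lower (16.7%), among them Esam (-0.44), and 1 higher (5.56%), Tjp1 (0.37). Of 14 pigment epithelium genes 5 were higher (35.7%) and none lower. Among them were Tyrp1, the highest at 0.84, and Lrat, an enzyme of the visual cycle (0.77, 0.82 and 0.43). What part these other tissues have in the remaining changes was not tested.

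**Figure D5:**
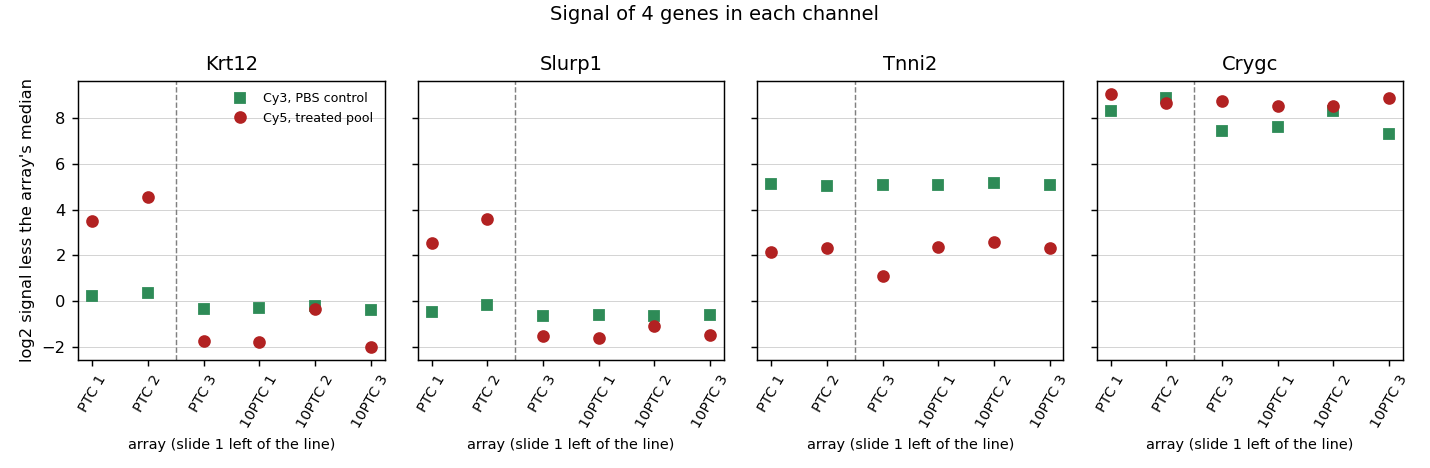
Log2 signal less the array's median (vertical axis) of 4 genes on each array (horizontal axis, slide 1 left of the dashed line), with green squares for the Cy3 control and red circles for the Cy5 treated pool. The Cy5 signal of Krt12 is 3.49 and 4.56 on the PTC arrays of slide 1 and -1.75 on that of slide 2, while Tnni2 lies near 5.1 in Cy3 on every array.

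Some ocular surface genes differed in sign between the PTC arrays of slide 1 and replicate 3, the single PTC array on slide 2. Those named first were picked for a small slide p or as the highest of the list. Krt12, the keratin of the corneal epithelium, lay at 3.32 and 4.22 in replicates 1 and 2 and at -1.42 in replicate 3. Slurp1, a secreted protein of the cornea, lay at 3.04 and 3.78 against -0.87, and Lypd2 at 2.51 and 2.95 against -0.63. None of the 3 was called against PBS, and the slide difference did not pass for Slurp1 (limma adjusted p = 0.281). The reversal was in the treated channel. Above the array's median, Krt12 stood at 3.49 and 4.56 in Cy5 on slide 1 and at -1.75 in replicate 3, with the 10PTC pools at -1.77, -0.32 and -2.01. In Cy3 it ranged only from -0.38 to 0.34 over the 6 arrays. Of 19 genes of the ocular surface list 5 were lower (26.3%), among them Krt17 (-0.51, -0.49 and -0.53) and Krt7 (-0.71, -0.89 and -1.40), and none higher. Without regard to calls, 6 of the 19 were below 0 and 3 above 0 on all 3 arrays.

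Lens genes were bright in both channels and did not pass. Of 22 crystallins and fibre genes none was called, and the list median was 0.18, -0.57 and 0.67 on replicates 1, 2 and 3. Crygc, a gamma-crystallin, stood at 8.33, 8.90 and 7.45 above the array's median in Cy3 and at 9.07, 8.68 and 8.77 in Cy5. Its ratio, 0.78, -0.22 and 1.32, differed between replicates 1 and 2 of slide 1 as well as between slides. Within slide 2, with the spread taken from the 10PTC arrays, 2 lens genes were called higher.

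Promoter sequence was set beside the calls for the 13332 genes tested that had a RefSeq promoter of 300 bases, from 250 before to 50 after the start (GRCm38.p6). The interferon response motif TTTCNNTTT, on either strand, was in 8.16% of these, in 9.28% of genes called higher and 6.32% of genes called lower. The motif was in 2891 of all 27025 promoters of the table, a larger share than among genes tested or genes called higher. It was in 35 of 252 genes called higher by 1.5-fold or more (13.9%), and in 34 of 185 (18.4%) when probes with a guanine-thymine run were left out. Among genes called lower by 1.5-fold or more it was in 6.22%. The windows below, 5′ to 3′ on the gene's strand with the match in capitals, come from such genes that take part in the interferon response or in antigen presentation.
Gbp2, chr3:142620594-142620623: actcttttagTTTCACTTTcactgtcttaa
Gbp3, chr3:142559989-142560018: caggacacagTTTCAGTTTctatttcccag
Ifit1, chr19:34640775-34640804: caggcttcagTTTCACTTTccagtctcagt
Oas1a, chr5:120907525-120907554: ccttctcgggAAATGGAAActgaaaatcta
B2m, chr2:122147539-122147568: taagaacatgAAACTGAAAatgggaaagtc
Ctss, chr3:95526756-95526785: tctttaaatgAAACCGAAAtgaaagttcac
Their mean log2 ratios were 1.04 for Gbp2, 1.35 for Gbp3, 1.51 for Ifit1, 1.5 for Oas1a, 1.18 for B2m and 1.94 for Ctss. The AP-1 motif TGANTCA was in 5.52% of genes tested, in 23 of 252 higher by 1.5-fold or more (9.13%) and in 5.33% of those lower by as much. The STAT motif TTCNNNGAA was in 7.12%, 7.54% and 6.67%. Over all promoters of the table the AP-1 motif was in 7.93% and the STAT motif in 8.47%, more than among the genes tested. For the cAMP response motif the shares of tested, higher and lower genes were 2.9%, 3.17% and 1.33%. For the sterol response motif they were 1.12%, 1.19% and 0.444%, and for the C/EBP motif 0.24%, 0% and 0%. A match describes the letters of the window and does not show that a factor binds there.

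The difference between the doses was tested on the 6 arrays, and no gene passed (0% called; 1945 genes, 8.61%, at an unadjusted p below 0.05 in limma, smallest adjusted p 0.278). The same held in each of the alternatives run for this difference, with between 736 and 2890 genes at an unadjusted p below 0.05. Genes of smallest p whose value was closer to 0 at PTC included Prss56, a serine protease of Muller glia, at 0.74, 0.31 and 0.37 with a mean of 0.47 at PTC and 2.49 at 10PTC (limma adjusted p = 0.284). Peli3 and Pfkl were further from 0 at PTC. Peli3, a ubiquitin ligase of immune signalling, had a mean of -0.60 at PTC and 0.03 at 10PTC, and Pfkl of -0.52 and -0.09. Ccn4, a secreted target of Wnt signalling, had opposite signs at the 2 doses. It lay at 0.21, 0.33 and 0.31 at PTC and at a mean of -0.37 at 10PTC (limma adjusted p = 0.278). With slide and dose overlapping in all but replicate 3, a difference between doses cannot be fully told apart from one between slides.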

How the data were processed

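Spot intensity values in both channels and log10 ratio values were deposited by the authors as scanner files, made with Feature Extraction 10.7.3.1 per the file headers, while the submitters' processing notes name 9.3.2.1. A deposited table holds the authors' log2 ratio values, whose centring is unknown, its columns having medians between -0.075 and 0.039. RNA was extracted with Trizol and labelled directly, per the labels' protocols. Mean signals less median local background were corrected with normexp (offset 50) and normalized by loess within each array in limma 3.58.1 (R 4.3.3), with 1377 control spots at weight 0 and outlier spots left out (185 to 229 per PTC array). No spot was saturated. Median signals on the PTC arrays were 153 to 217 in Cy3 and 187 to 287 in Cy5, against backgrounds of 26 to 29 and 47 to 47.5, and these levels limit the precision. Probes were kept if either channel was well above background on 2 or more of the 3 PTC arrays (11101 of 39429 were left out), and the brightest probe of a gene was used. Of the 22599 genes, 17432 were matched to a current symbol.

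The 3 PTC arrays were fitted alone; the slide and dose differences used all 6. Where a channel was not well above background on any PTC array, a bound is given against the lowest signal well above background, open to dye bias. The 56 gene lists and the genes followed were chosen with earlier results of these data known. Named were the 4 genes of smallest p per direction in each size band, up to 3 per list, the lists' ends and the 4 per direction for slide and dose; other members were picked after their values were seen. Some genes that meet the rule are left out of the text. On simulated data with 22595 genes, 200 of them changed, the PTC fit recovered 22% of the smallest changes, 82% of 1.5-fold and 98% of 2-fold changes. It made 17 false calls. For the dose difference the shares were 4%, 86% and 94%, and for the slide difference 0%, 10% and 92%. The simulated noise was independent between genes and arrays, without dye, base composition or repeat effects. The number of false calls in the real data therefore cannot be read from it. Alternatives were other signals, scalings, filters, probe rules, moderation and array weights, 6 arrays in 1 fit, slide or replicate number as a block, values within slides, each replicate left out and a treat test. Corrections for base composition, leaving out probes with repeats, and 2 joint settings were chosen after seeing the data.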

Additional observations from a re-analysis of the deposited data

How the results depend on the processing

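Against 2308 higher and 2333 lower genes, the counts were 4350 and 4192 with all 6 arrays in 1 fit, 32 and 41 with processed signals, 23 and 31 with the authors' deposited table, 5978 and 1410 with median centring, 1455 and 1472 with an offset of 0, 7818 and 8038 with array quality weights, and 1 and 24 in a treat test against 1.5-fold. Within slide 1 they were 143 and 96, and within slide 2, with 1 PTC array assumed to vary like the 10PTC arrays, 971 and 758. Chosen after seeing the data, processed signals gave 1418 and 1672 on probes well above background in Cy3 and Cy5 throughout, and 3874 and 4511 with 6 arrays. Leaving out each replicate gave 0 to 2099 higher and 0 to 1914 lower. Replicate numbers did not pair the samples (correlations of deviations -0.288, 0.156 and 0.219 for the same number), and a replicate block gave 3229 and 3153. For the slide difference 2 genes passed with processed signals.

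Of the genes named by rule, 5 changed sign when probes with a run were left out and another probe was used. The values on the other probe were small: Epha5 (-0.01), Sema6d (-0.11), Scn8a (-0.14), Ehmt1 (-0.01) and Il15ra (-0.08). Why the probes of these genes differ was not tested, and neither was the cause of the counts above.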

Other observations

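Gene families were also counted by a shared stem of the symbol, against 10.2% higher and 10.3% lower over all genes tested. Some of their members are also in the lists. Of 359 Zfp genes, most of them zinc finger proteins that bind DNA, 20.9% were higher and 7.24% lower, with medians of 0.03, 0.09 and 0.07 on replicates 1, 2 and 3. Of 35 Cep genes, of centrosome and cilium, 25.7% were higher and 2.86% lower, and of 36 Ddx genes, RNA helicases, 16.7% were higher and 0% lower. Among 320 Slc genes, the solute carriers, 7.81% were higher and 13.4% lower, and among 213 Tmem genes, of transmembrane proteins, 7.98% and 16%. The 185 Olfr genes measured, odorant receptors that the retina is not known for, were higher in 10.3%, near the share over all genes, and lower in 1.08%. Genes were also called unevenly by chromosome, with 7.31% higher and 14.3% lower of 1779 genes on chromosome 7 and 14.8% and 6.47% of 881 on chromosome 13. Whether base composition of the probes differs between these families or chromosomes was not tested.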
